A study of Mus musculus with 12 samples.

Results

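Calmodulin is the protein through which many cells read calcium. When calcium enters the cytoplasm, calmodulin binds it and switches on target enzymes, among them the calcium/calmodulin-dependent protein kinases (CaMK) and the phosphatase calcineurin. In heart muscle, CaMKII phosphorylates the channels and pumps that release and recover calcium at each beat, and its sustained activity is a known feature of failing hearts. Small proteins with an IQ motif, such as PCP4, bind calmodulin and change how fast it exchanges calcium. The 9 genes described here were the rows of the count table with the symbols Pcp4, Pcp4l1, Calm2, Calm3, Camk2a, Camk2b, Camk2d, Camk2g and Camk4. All 9 were found among the 24062 gene symbols listed.

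Whole-heart RNA was sequenced from 12 mice in 4 groups of 3. WT mice and KI/KI mice, homozygous for Lemd2 c.T38>G in every cell, were 2 months old. Floxed mice, with loxP sites around the first exon of Lemd2 and without Cre, and cKO mice, in which Cre driven by the Myh6 promoter deletes that exon in cardiomyocytes, were taken at postnatal day 1 (P1). Lemd2 encodes a nuclear envelope protein. The 2 models therefore differed in allele, in the cells affected and in age, and these cannot be told apart in a comparison between them.

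Library totals ranged from 37063669 counts (a WT heart) to 44789753 counts (a cKO heart), and levels are given as CPM, the count per 1e6 counts of the library, scaled by TMM over the 12 hearts. Lemd2 was at 31.9 to 34.7 CPM in WT and 24.8 to 25.6 CPM in KI/KI hearts, and at 24.4 to 25.3 CPM in floxed and 6.64 to 13.1 CPM in cKO hearts. It differed by -0.39 on the log2 scale in KI/KI hearts (adjusted p = 0.181 in edgeR's quasi-likelihood test, 3.8e-04 in DESeq2). In cKO hearts it fell by 1.27 (adjusted p = 0.0142 in edgeR, 4.4e-06 in DESeq2). The heart numbered cKO 4 was the 1 heart without Y-linked transcripts (0.0805 CPM summed over 4 genes, against 222 to 375 CPM in the other hearts). Sex therefore differs within the cKO group. The calmodulin-related genes that still passed at P1 without this heart are named, and for Camk2a the log2 fold change is given. For the further genes of calmodulin signalling, values without this heart are not given gene by gene. The 6 cardiomyocyte markers summed to 61154 to 68872 CPM in WT, 43794 to 61057 CPM in KI/KI, 31594 to 36431 CPM in floxed and 24793 to 27946 CPM in cKO hearts. Of these sums, Myh6 gave 39895 to 43483, 27004 to 37913, 17266 to 21223 and 12342 to 15742 CPM in the same order of groups. All 6 were lower in KI/KI hearts, Actn2 by only 0.03 on the log2 scale. In cKO hearts 5 were lower, and Actn2 was higher by 0.32. Fibroblast markers, 4 genes, summed to 1070 to 1226, 1215 to 1775, 1397 to 1509 and 1666 to 2081 CPM in the same order of groups. All 4 were higher in KI/KI hearts, while in cKO hearts 2 were higher and 2 lower. Of the P1 sums, Col1a1 gave 983 to 1103 CPM in floxed and 1268 to 1654 CPM in cKO hearts. In whole-heart RNA, fewer cells of a type and less RNA per cell cannot be told apart.

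PCP4 and PCP4L1 are short proteins built around 1 IQ motif. Mouse Pcp4 lies on the plus strand at chr16:96467606-96525793 and Pcp4l1 on the minus strand at chr1:171173262-171196268 (GRCm38). Their coding sequences are shown because both encode the same kind of calmodulin-binding core, and the capitals mark the codons of that core, found by its pattern of isoleucine, glutamine and basic residues.
Pcp4: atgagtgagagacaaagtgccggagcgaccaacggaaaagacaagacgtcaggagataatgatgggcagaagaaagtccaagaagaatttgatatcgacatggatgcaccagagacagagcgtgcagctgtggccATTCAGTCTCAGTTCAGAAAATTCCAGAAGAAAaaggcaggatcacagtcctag
Pcp4l1: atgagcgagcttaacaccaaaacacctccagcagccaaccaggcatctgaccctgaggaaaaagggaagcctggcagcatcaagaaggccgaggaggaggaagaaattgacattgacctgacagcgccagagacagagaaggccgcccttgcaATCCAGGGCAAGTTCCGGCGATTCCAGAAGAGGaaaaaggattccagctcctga
The encoded proteins have 62 and 68 residues, and 30 of 62 aligned residues (48.4%) were identical. The motif occupied residues 46 to 56 of PCP4 and 52 to 62 of PCP4L1. No 75-base stretch of a Pcp4l1 transcript, the length of a read, occurred in another gene. For Pcp4, 171 of 789 such stretches also belonged to Igsf5, a neighbour on the same strand with 243 exon bases in common, which held 0 to 14 counts per heart.

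Calm2 (minus strand, chr17:87433412-87446935) and Calm3 (minus strand, chr7:16915379-16924114) encode an identical protein of 149 residues, calmodulin, from separate loci. Their coding bases differed enough for reads to tell them apart, with 372 of 450 coding bases (82.7%) in common. The 12 codons of the first calcium-binding loop are shown as an example, with capitals at the 7 bases that differed between the 2 genes.
Calm2: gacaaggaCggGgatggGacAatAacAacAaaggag
Calm3: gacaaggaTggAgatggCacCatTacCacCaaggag
Pseudogenes or other transcripts held 3.69% of the 75-base stretches of Calm2 and 1.23% of those of Calm3.

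The CaMKII subunits are encoded by Camk2a (plus strand, chr18:60925618-60988152), Camk2b (minus strand, chr11:5969644-6066362), Camk2d (plus strand, chr3:126596302-126846326) and Camk2g (minus strand, chr14:20734875-20794088). CaMKIIδ, from Camk2d, is the main cardiac form. Its longest annotated protein had 533 residues, and the aligned residues of the α, β and γ subunits were 85.9%, 86.7% and 86.1% identical to it, but no 75-base stretch of any CaMKII gene occurred in another gene. In muscle, Camk2a also encodes αKAP, an anchoring protein without a kinase domain, and counts per gene do not separate it from the kinase. Camk4 (plus strand, chr18:32934931-33191228) encodes CaMKIV, a nuclear kinase best known from neurons and T cells, with 39.7% identity to CaMKIIδ over 433 aligned residues. It shared 72 exon bases with an antisense gene, and how strand was treated in counting is not given in the sources used here.

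Levels were compared between genes per kb of exon, in CPM per kb. In WT hearts the order was Pcp4l1 at 120.2 ± 11.4, Calm2 at 107 ± 0.825, Calm3 at 85.5 ± 2.22, Camk2d at 44.9 ± 5.69, Camk2g at 25.7 ± 1.06, Camk2a at 18.5 ± 0.939, Camk2b at 7.45 ± 0.965, Pcp4 at 1.09 ± 0.263 and Camk4 at 0.325 ± 0.0488 (SD, n = 3 each). No 2 neighbours in this order overlapped between hearts. Pcp4 thus stood near the low end and its paralog at the high end in the same hearts. In floxed hearts at P1, Calm2 led at 128 ± 5.57, Pcp4l1 stood below Calm2 and Calm3 at 70.8 ± 4.81, and Pcp4 was lowest at 0.0914 ± 0.0984 (SD, n = 3).

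**Figure D1:**
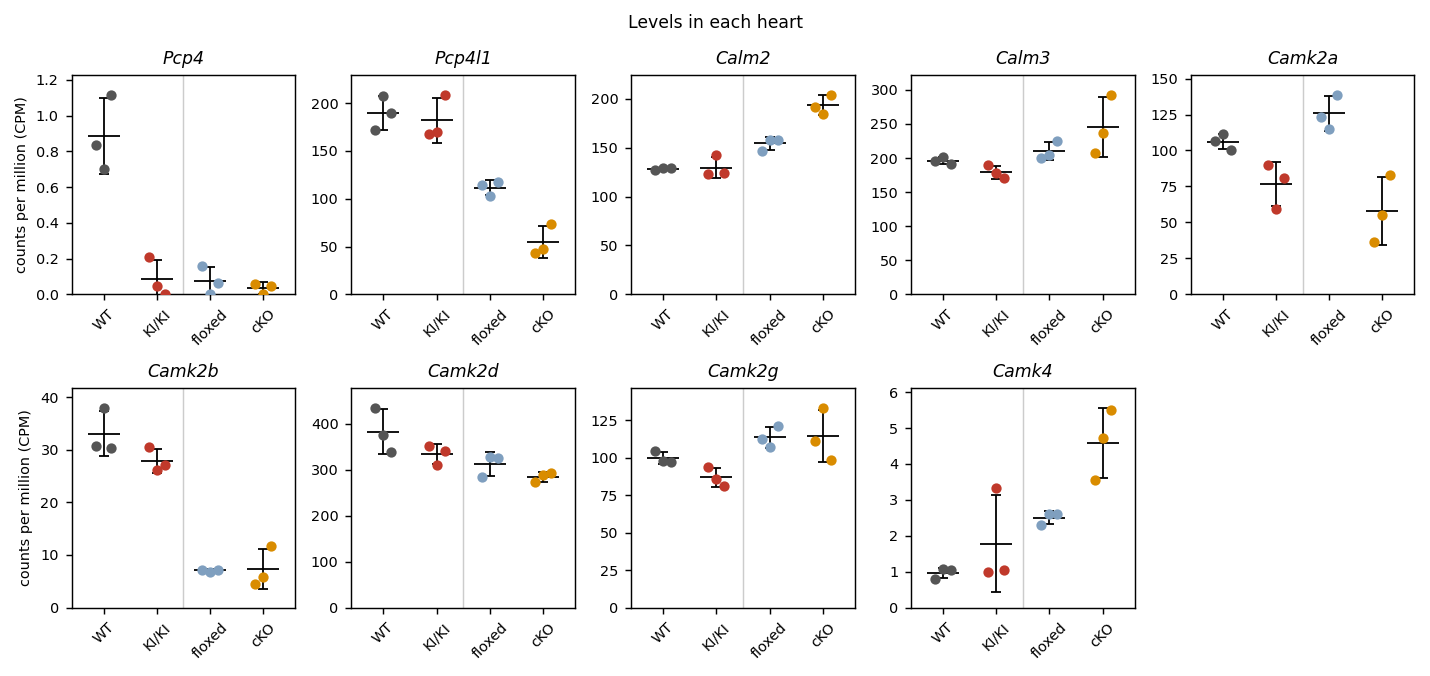
Levels of the 9 genes in each heart, in CPM on a linear axis starting at 0. Each point is 1 heart, and the horizontal bar and whiskers are the mean and SD of the 3 hearts of a group. Pcp4 was at 0.702 to 1.12 CPM in the WT hearts and at most 0.208 CPM in every other heart, while Pcp4l1 and Camk2a were lowest in cKO hearts.

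To compare adult hearts, the 3 KI/KI libraries were fitted against the 3 WT libraries, and 14592 genes were tested. Pcp4 showed the widest difference of the 9 genes. The other 8 differed by less than 2-fold, and 7 of the 9 values lay below 0, with a median of -0.19 on the log2 scale against 0.0023 over all genes tested. None of the 9 passed an adjusted p of 0.05 in edgeR's quasi-likelihood test, as none of the 14592 genes did (0% called). At an unadjusted p under 0.05 stood Pcp4, Camk2a and Camk2g, 3 of 9, where 16.2% of all genes tested did. DESeq2 called 1 of the 9, Pcp4, and 1.08% of all genes to which it gave an adjusted p. The WT and KI/KI hearts did not overlap for 4 of the 9, Pcp4, Calm3, Camk2a and Camk2g, all lower in KI/KI, and the background share of genes without overlap was 22.4%.

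The WT hearts held 26, 23 and 41 counts of Pcp4, or 0.834, 0.702 and 1.12 CPM. The KI/KI hearts held 7, 2 and 0 counts, or 0.208, 0.0483 and 0 CPM. All 3 KI/KI hearts were below the lowest WT heart, and 2 of them were below the floor of 3 counts (at most 0.0892 CPM in this group). The summed counts, 90 in WT and 9 in KI/KI, gave a ratio of 11 after scaling (exact 95% interval 5.54 to 24.8, counting error only). The fitted log2 fold change was -3.39 ± 0.63 (SE), with an adjusted p of 0.181 in edgeR's quasi-likelihood test and 0.0038 in DESeq2. It was called in the edgeR fit of all 12 hearts (adjusted p = 0.0427) but not with any single adult heart left out, where the adjusted p ranged from 0.0515 to 0.518 and the log2 fold change from -4.92 to -2.85.

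Pcp4 is known from neurons and from the cardiac conduction system, and markers of both moved beside it. Cntn2, which marks the Purkinje network, was at 27.9 to 49.2 CPM in WT and 11.6 to 16.9 CPM in KI/KI hearts, a log2 fold change of -1.41 ± 0.25 (SE, adjusted p = 0.181). Hcn4, the pacemaker channel, was at 18.5 to 25 CPM in WT and 8.52 to 16.3 CPM in KI/KI hearts. For both genes the groups did not overlap. The 10 conduction markers together, however, summed to 182 to 246 CPM in WT and 173 to 184 CPM in KI/KI hearts, with 5 of 9 tested lower. The 7 neuronal markers summed to 16.5 to 17.5 CPM in WT and 8.36 to 13.2 CPM in KI/KI hearts, of which Dbh gave 6.77 to 10.7 and 1.57 to 4.79 CPM, while Th, the first enzyme of the same catecholamine pathway, was at 0 to 0.109 CPM in all 6. The part of either cell type in the Pcp4 result was not tested.

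Over the 12 hearts, the genes whose log2 CPM most resembled that of Pcp4 were Dbh (Pearson r = 0.895), Mas1 (r = 0.888) and Celsr2 (r = 0.869). Dbh encodes dopamine β-hydroxylase, which makes noradrenaline, and was like Pcp4 lower in each KI/KI heart than in each WT heart. Mas1 encodes a receptor for angiotensin peptides and Celsr2 an adhesion receptor of the cadherin family. The 12 points share 4 groups and 2 ages, and the values describe these hearts only.

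Pcp4l1 was at 172, 208 and 189 CPM in WT and 167, 169 and 209 CPM in KI/KI hearts. The groups overlapped, and the log2 fold change was -0.05 (95% interval -0.32 to 0.21, adjusted p = 0.832 in edgeR). Calm2 also overlapped, at 127 to 129 CPM in WT and 123 to 142 CPM in KI/KI hearts, a log2 fold change of 0.02 (95% interval -0.15 to 0.20). Calm3 was at 191 to 201 CPM in WT and 171 to 189.8 CPM in KI/KI hearts. These did not overlap, and the log2 fold change was -0.12 (adjusted p = 0.369 in edgeR).

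Among the kinases, Camk2a was at 107, 111 and 100 CPM in WT and 89.8, 59.7 and 81.0 CPM in KI/KI hearts. Each KI/KI heart was below each WT heart, with a log2 fold change of -0.46 ± 0.14 (SE, adjusted p = 0.245 in edgeR, 0.0733 in DESeq2). The heart with the lowest Camk2a, KI/KI 5, also had the lowest cardiomyocyte marker sum of the adult hearts, 43794 CPM, and the part of this in the result was not tested. Camk2g was at 96.9 to 104 CPM in WT and 81.0 to 93.9 CPM in KI/KI hearts, with a log2 fold change of -0.19 (adjusted p = 0.274). Camk2d, at 338 to 434 and 310.3 to 350.4 CPM, and Camk2b, at 30.4 to 37.9 and 26.2 to 30.5 CPM, overlapped between the groups.

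Camk4 was at 0.802, 1.07 and 1.04 CPM in WT hearts and at 0.982, 3.33 and 1.04 CPM in KI/KI hearts. Only KI/KI 5 was higher than every WT heart. The log2 fold change of 0.93 (adjusted p = 0.421 in edgeR) was 0.06 without that heart. The T cell and thymocyte markers, 7 genes of cells in which CaMKIV is abundant, summed to 1.93 to 2.08 CPM in KI/KI and 1.15 to 1.96 CPM in WT hearts. Of these sums, Cd4 gave 1.11 to 1.32 and 0.738 to 1.06 CPM, and only 2 of the 7 markers could be tested. The 5 atrial markers summed to 9808 CPM in KI/KI 5 and to 4220 and 6512 CPM in the other KI/KI hearts. Nppa alone gave 7543 CPM of the sum in KI/KI 5, and 2617 and 4658 CPM in the others. Of the 5 markers, 4 were higher in KI/KI than in WT hearts and 1 was lower. The log2 fold change was 0.07 for Sln and -0.09 for Myl7. KI/KI 5 was the highest KI/KI heart for both, at 179 CPM of Sln and 723 CPM of Myl7. The part of the atrial markers in the Camk4 value was not tested.

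At P1, the 3 cKO libraries were fitted against the 3 floxed libraries, and 15317 genes were tested. Among the calmodulin-related genes, the PCP4 paralog and 1 kinase gene fell by more than 2-fold, and a calmodulin gene and CaMKIV rose. Pcp4 held too few counts to be tested. Of the other 8 genes, 4 passed an adjusted p of 0.05 in edgeR's quasi-likelihood test, where 16.9% of all genes did. Calm2 and Camk4 rose (background 9.32%), and Pcp4l1 and Camk2a fell (background 7.57%). Of these, Pcp4l1 and Camk2a also changed by more than 2-fold, against 4.64% of all genes. The groups did not overlap for these 4, against 39.8% of all genes, and DESeq2 also passed 4, with 23.8% of all genes past its adjusted p. The median of the 8 log2 fold changes was 0.02, against -0.0043 over all genes tested.

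Whether these 4 genes passed depended on single hearts. With 1 heart left out in turn, between 0 and 4 of the 8 genes passed, and between 160 and 3463 of all genes tested. None of the 8 passed without floxed 1, without floxed 2 or without cKO 5, where all genes past the threshold numbered 160, 668 and 542. Without floxed 3, Pcp4l1 alone passed, and without cKO 6 all 4 did. Without cKO 4, the heart lacking Y-linked transcripts, Pcp4l1, Camk2a and Camk4 passed.

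The floxed hearts held Pcp4l1 at 114, 103 and 118 CPM, and the cKO hearts at 43.3, 47.2 and 73.5 CPM. Each cKO heart lay below each floxed heart, with cKO 6 the nearest. The log2 fold change was -1.03 ± 0.19 (SE, adjusted p = 0.0162 in edgeR). With 1 heart left out it ranged from -1.30 to -0.90, and the adjusted p from 9.0e-04 to 0.0842. Pcp4 itself was at 7, 0 and 3 counts in floxed and 3, 0 and 2 counts in cKO hearts. Only floxed 1 was above the floor of 3 counts, so no fold change is given.

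The nearest patterns to Pcp4l1 over the 12 hearts were those of Lrrc14b (Pearson r = 0.987), Rilp (r = 0.987) and Dhrs7c (r = 0.985). Dhrs7c encodes an enzyme of the sarcoplasmic reticulum of striated muscle, and stood at 58.0 to 82.7 CPM in floxed and 16.8 to 29.2 CPM in cKO hearts. Of the 6 cardiomyocyte markers, 5 were lower in cKO hearts and 2 passed the adjusted p, and the median of their log2 fold changes was -0.36. Their part in the Pcp4l1 and Camk2a results was not tested.

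Calm2 levels were 147, 158 and 158 CPM in the floxed hearts and 192, 184 and 204 CPM in the cKO hearts. Every cKO heart exceeded every floxed heart, and the log2 fold change was 0.33 ± 0.07 (SE, adjusted p = 0.0292 in edgeR). With 1 heart left out it ranged from 0.28 to 0.37, and the adjusted p from 0.0396 to 0.142. Calm2 did not pass without cKO 4. Calm3 was at 200.4 to 225 CPM in floxed and 207 to 293 CPM in cKO hearts. These overlapped, and the log2 fold change was 0.22 (95% interval -0.07 to 0.52, adjusted p = 0.243). An interval that spans both 0 and the Calm2 value does not separate Calm3 from either. The genes most like Calm2 in pattern were Nans (Pearson r = 0.984), Pxn (r = 0.983), which encodes the focal adhesion protein paxillin, and Rps19bp1 (r = 0.982).

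For Camk2a, the floxed hearts measured 123, 115 and 139 CPM and the cKO hearts 36.1, 55 and 83.1 CPM. The cKO hearts were all lower and spread more widely than the floxed hearts (SD 23.6 against 12.2 CPM, n = 3 each). The log2 fold change was -1.12 ± 0.26 (SE, adjusted p = 0.0323 in edgeR), and it ranged from -1.47 to -0.88 with 1 heart left out. The 5 atrial markers summed to 9736, 6682 and 2632 CPM in the same cKO hearts and to 1722 to 2934 CPM in floxed hearts. Nppa alone gave 6850, 4847 and 2198 CPM of the cKO sums. Of the 5 markers, 4 were higher in cKO hearts and 1 was lower, with log2 fold changes of 0.12 for Myl7 and -0.32 for Sln. The part of the atrial markers was not tested. Without cKO 4 the log2 fold change of Camk2a was -0.88 (adjusted p = 0.0316), below 2-fold. Its nearest pattern was Myh7b (Pearson r = 0.979), a myosin heavy chain gene, at 167 to 209.5 CPM in floxed and 61.8 to 128 CPM in cKO hearts. Hsdl2 (r = 0.956) and Aldh5a1 (r = 0.949), which encodes a mitochondrial enzyme of GABA breakdown, followed.

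The other CaMKII genes did not pass the test at P1. Camk2d was at 283 to 328 CPM in floxed and 273 to 292 CPM in cKO hearts, a log2 fold change of -0.14 (95% interval -0.33 to 0.05). Camk2g was at 107 to 121 and 98.7 to 133 CPM, with a log2 fold change of 0.01 (95% interval -0.27 to 0.29). Camk2b was at 7.21, 6.83 and 7.24 CPM in floxed and 4.45, 5.82 and 11.6 CPM in cKO hearts. Its cKO hearts lay on both sides of the floxed hearts. The log2 fold change of 0.02 (95% interval -0.75 to 0.80) became -0.47 without cKO 6 (adjusted p = 0.0841).

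Camk4 levels were 2.29, 2.6 and 2.61 CPM in the floxed hearts and 3.54, 4.71 and 5.49 CPM in the cKO hearts. The groups did not overlap, and the log2 fold change was 0.86 ± 0.20 (SE, adjusted p = 0.0305 in edgeR). In the fit of all 12 hearts the adjusted p was 0.076. T cell and thymocyte markers summed to 0.544 to 1.44 CPM in floxed and 1.27 to 2.85 CPM in cKO hearts. Of these sums, Cd4 gave 0.295 to 0.502 and 1.06 to 2.39 CPM. It was the only 1 of the 7 markers with enough counts to be tested at P1. The mean levels of Cd3d, Cd8a and Rag1 were lower in cKO hearts. The 7 neuronal markers were each lower in cKO hearts, summing to 12 to 22.7 CPM in floxed and 7.05 to 13.9 CPM in cKO hearts, and the 4 glial markers summed to 13.9 to 35 and 8.09 to 10.1 CPM. The part of these cells in the Camk4 result was not tested. The nearest patterns were Pde9a (Pearson r = 0.980), a cyclic GMP phosphodiesterase, Anapc15 (r = 0.977) and Rnf24 (r = 0.973).

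**Figure D2:**
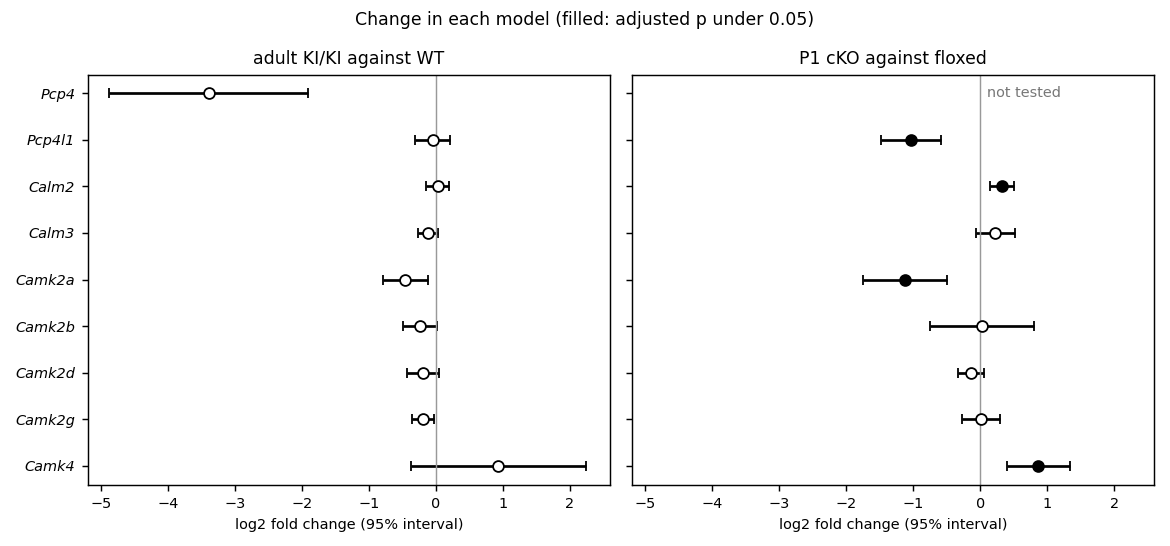
Log2 fold changes of the 9 genes in adult KI/KI against WT hearts and in P1 cKO against floxed hearts. Points are estimates from edgeR, whiskers are 95% intervals from the same fit, and filled points passed an adjusted p of 0.05. Pcp4 stood at -3.39 in KI/KI hearts and was not tested at P1, and at P1 Pcp4l1 and Camk2a lay below 0 and Calm2 and Camk4 above it.

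The make-up of the kinase transcripts was compared as shares of summed CPM per kb. In WT hearts Camk2d held 46.4% ± 2.53, Camk2g 26.7% ± 1.21, Camk2a 19.2% ± 1.06 and Camk2b 7.74% ± 1.05 of the CaMKII transcripts (SD, n = 3). The KI/KI hearts held 16.4% ± 2.15 of Camk2a, and their summed CaMKII level was 74.7 to 87.8 CPM per kb against 89.0 to 103 CPM per kb in WT hearts. At P1 the share of Camk2a was 22.8 to 25.4% in floxed and 9.27 to 18.9% in cKO hearts, and that of Camk2g was 31.5 to 34.0% and 33.1 to 43.5%. The Camk2a shares did not overlap, and the Camk2g shares did. With 3 hearts against 3, an exact permutation test cannot go below p = 0.10, so the shares were not tested. Camk2b held 1.79% ± 0.101 in floxed and 2.19% ± 1.07 in cKO hearts, below its adult share. With the length of the longest coding transcript in place of all exons, chosen after the data were seen, Camk2d held 55% ± 2.52 in WT hearts.

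The summed CaMKII level at P1 was 85.3 to 95.3 CPM per kb in floxed and 67.9 to 79.0 CPM per kb in cKO hearts. Every cKO heart lay below every floxed heart, and 39.8% of all single genes did not overlap at P1. Mean Camk2a was 21.9 CPM per kb in floxed and 10.1 in cKO hearts, and mean Camk2d was 36.7 and 33.3. Camk2g was at 29.3 and 29.5, and Camk2b at 1.60 and 1.65. Counts of Camk2a also hold αKAP, so the sum is not of kinase transcripts alone.

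**Figure D3:**
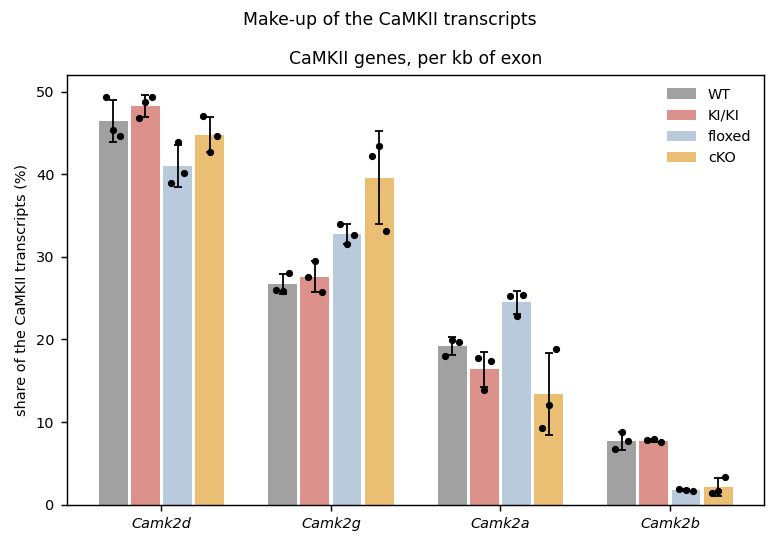
Share of each gene in the summed CaMKII transcripts per kb of exon, in percent, with the axis from 0. Bars and whiskers are the mean and SD of 3 hearts and points are single hearts. Camk2a held 24.5% of the CaMKII transcripts in floxed and 13.4% in cKO hearts.

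The 2 control groups showed how the genes differ between the ages. Floxed P1 hearts were compared with WT adult hearts in the fit of all 12 hearts, in which age, the floxed allele and cohort cannot be told apart. Of the 9 genes, 6 passed an adjusted p of 0.05 in edgeR's quasi-likelihood test, against a background of 63.5%. Camk2b was 2.22 ± 0.27 lower at P1 on the log2 scale (SE, adjusted p = 2.7e-05), at 6.83 to 7.24 CPM against 30.4 to 37.9 CPM. Pcp4 was 3.56 ± 0.63 lower (SE, adjusted p = 1.7e-04), and its floxed hearts summed to 10 counts. Pcp4l1 and Camk2d were lower at P1 by 0.76 and 0.29 on the log2 scale, and Calm2 and Camk4 were higher by 0.27 and 1.36.

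The responses in the 2 models were compared by an interaction term in the fit of all 12 hearts. None of the 9 genes passed an adjusted p of 0.05 in edgeR, with 2.43% of all genes past it, 3 of the 9 were under an unadjusted p of 0.05, where 20% of all genes were. DESeq2 passed 2, Pcp4l1 and Calm2, and 8.81% of all genes. The response of Pcp4l1 was 0.97 ± 0.25 lower in cKO than in KI/KI hearts on the log2 scale (SE, adjusted p = 0.0633 in edgeR). In 12 edgeR fits with 1 heart left out, this difference ranged from -1.24 to -0.825, and the adjusted p from 0.0036 to 0.155. Only 1 of the 12 fits passed, that without cKO 6. For Camk2a the difference was -0.65 ± 0.34 (SE, adjusted p = 0.314). The interval for Pcp4, -1.10 to 5.99, spanned 0. A difference between the models in Pcp4, or in any other of these genes, was therefore not shown by the edgeR test.

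A further 68 genes of calmodulin signalling were followed, from calmodulin-binding IQ proteins and the kinases of the CaM kinases to calcineurin, its regulators and the NFAT and MEF2 factors. In KI/KI hearts 64 were tested and none passed the adjusted p in edgeR. At an unadjusted p under 0.05 stood 15 of 64, against 16.2% of all genes, and DESeq2 passed 5, against 3.56% of all genes. Of the 64, 33 values were above 0 and 31 below, and the median was 0.02. The smallest unadjusted p-values were those of Nos1, Adcy8 and Phkg1. Nos1, the neuronal nitric oxide synthase, was at 1.64, 2.29 and 2.24 CPM in WT and 0.446, 0.555 and 0.842 CPM in KI/KI hearts, a log2 fold change of -1.73 (adjusted p = 0.181). Adcy8, a calmodulin-stimulated adenylyl cyclase, was at 2.41, 1.98 and 2.7 CPM in WT and 1.13, 0.531 and 0.758 CPM in KI/KI hearts, a log2 fold change of -1.57 (adjusted p = 0.181). These 2 genes, like Pcp4, did not overlap between the adult groups and were at most 0.181 (Nos1) and 0.327 CPM (Adcy8) in the P1 hearts.

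In cKO hearts 63 of the 68 were tested, and 16 passed the adjusted p in edgeR, 8 higher and 8 lower, with a median of 0.03. Of all genes 16.9% passed, 9.32% higher and 7.57% lower. DESeq2 passed 21, against 23.8% of all genes, and the edgeR count fell to 1 without floxed 1. The widest changes were those of Phkg1, Mylk4, Rcan1 and Pde1c. Phkg1, the catalytic subunit of muscle phosphorylase kinase, whose δ subunit is calmodulin itself, fell by 1.70 on the log2 scale (adjusted p = 0.0089), from 3.17 to 4.90 CPM in floxed to 1.04 to 1.41 CPM in cKO hearts. Mylk4, a myosin light chain kinase family member, rose by 1.52 (adjusted p = 0.0126), from 19.1 to 29.0 CPM to 46.6 to 82.9 CPM. Rcan1, an inhibitor and transcriptional target of calcineurin signalling, rose by 1.13 (adjusted p = 0.0093), from 63.3 to 93.0 CPM to 138 to 184 CPM. Pde1c, a calmodulin-dependent phosphodiesterase, fell by 0.92 (adjusted p = 0.0273), from 109 to 112 CPM to 43.2 to 80.4 CPM. In KI/KI hearts, where none of these genes passed, Rcan1 was at 114 to 210 CPM, against 83.9 to 91.5 CPM in WT hearts. Phkg1 was at 31.7 to 40.7 CPM in KI/KI and 46.8 to 51.9 CPM in WT hearts. Mylk4 and Pde1c overlapped between the adult groups.

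By role, and named after their values were seen, both kinases that activate CaMKI and CaMKIV, Camkk1 and Camkk2, rose in cKO hearts, by 0.66 and 0.48 on the log2 scale (adjusted p = 0.0383 and 0.0173 in edgeR). All 3 MEF2 factors tested, Mef2a, Mef2c and Mef2d, fell, by 0.61, 0.41 and 0.46 (adjusted p = 0.0063, 0.0222 and 0.0106). Of all genes, 9.32% rose and 7.57% fell. The cardiomyocyte markers were lower in the same hearts, 5 of 6 with a median of -0.36, and their part in the MEF2 values was not tested. None of the 4 calcineurin subunits and none of the 7 calmodulin-binding IQ proteins of the list passed. For 3 of the 65 genes tested, Phkg1, Mylk4 and Mef2c, the responses differed between the models in the interaction test, which 2.43% of all genes passed. Phkg1 had an interaction of -1.28 (adjusted p = 0.0286), Mylk4 of 1.9 (adjusted p = 0.0327) and Mef2c of -0.54 (adjusted p = 0.0362).

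**Figure D4:**
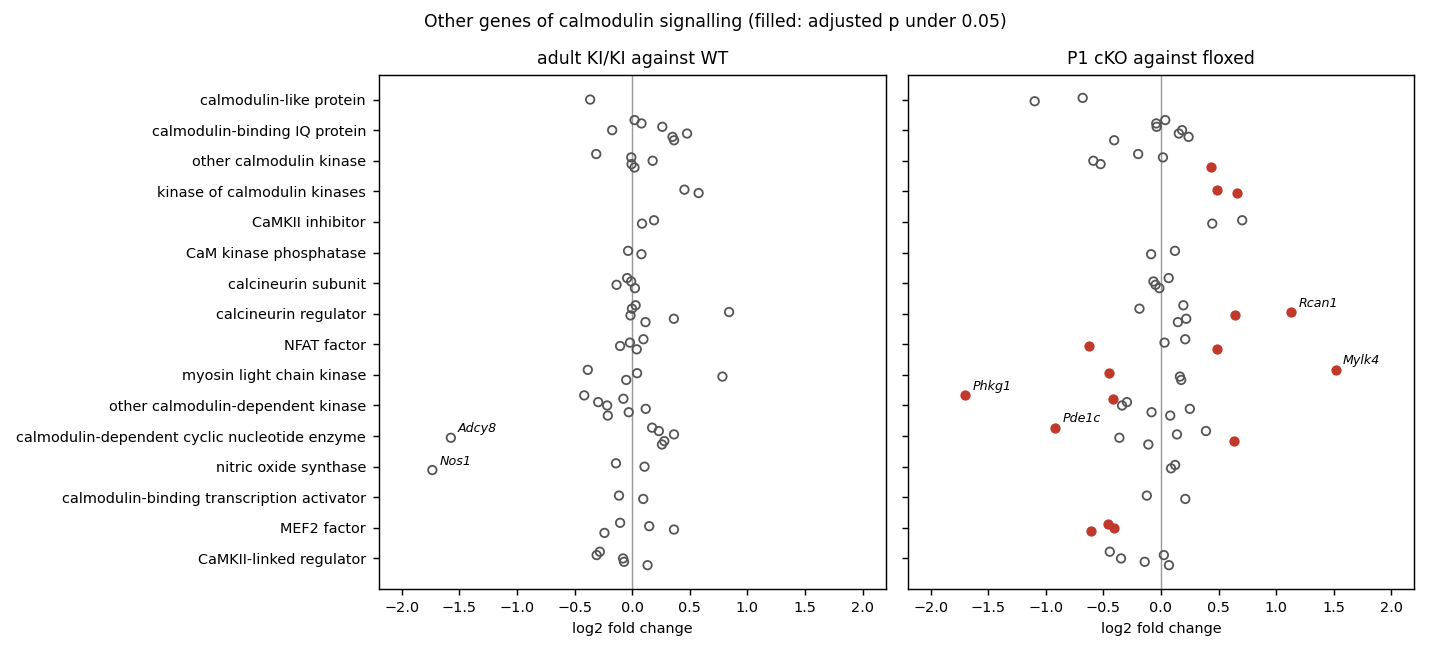
Log2 fold changes of the other calmodulin-signalling genes that were tested, grouped by role, in adult KI/KI against WT and in P1 cKO against floxed hearts. Each circle is 1 gene and filled circles passed an adjusted p of 0.05 in edgeR. None of 64 was filled in KI/KI hearts and 16 of 63 were in cKO hearts, 8 above and 8 below 0.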

How the data were processed

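The libraries were read as 75-base single ends. Adapters and poor bases were removed by Trim Galore, STAR 2.7.2b placed the reads on mm10, HTSeq assigned them to genes, and the authors deposited the resulting counts as whole numbers with no scaling. The table lists 24062 symbols. Counts were tested in R 4.3.3 with edgeR 4.0.16 (TMM, filterByExpr, robust quasi-likelihood test, Benjamini-Hochberg adjustment over all genes tested), using the 6 libraries of each comparison, or all 12 for the interaction and for the comparison of control groups. Genes were called where the adjusted p was under 0.05 and the change was over 2-fold. Standard errors and 95% intervals came from the same test. DESeq2 1.42.0, other factors, filters and dispersions, and each library left out were alternatives. The code was tested on simulated counts.

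The 9 genes, the 68 pathway genes and the markers were chosen with earlier results of these data known. Named pathway genes were the 4 widest changes past the threshold in a comparison or, where none passed, the 3 smallest p-values. For genes of similar pattern, the 3 highest Pearson correlations of log2 CPM (prior count 2) over the 12 hearts were taken. CPM used TMM factors over 12 libraries. Depth was 37063669 to 44789753 counts per library, and 3 counts, taken as the floor, were 0.0603 to 0.0962 CPM. Intervals on counts cover counting error only. Positions, lengths and sequences are from GENCODE vM21 (GRCm38), in which all 9 symbols were found. Lengths are unions of exons of coding transcripts. A related gene is not reported here.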

Additional observations from a re-analysis of the deposited data

How the results depend on the processing

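In KI/KI hearts 1 of the 9 genes was called, and 1 passed the adjusted p, with DESeq2 and in the fit of all 12 libraries, against 0, and 5 and 2 pathway genes passed, against 0. Leaving out 1 library left these adult counts at 0. In cKO hearts it gave 0 to 2 called genes, 0 to 4 past the adjusted p and 1 to 18 pathway genes, and for floxed against WT 4 to 6. For the difference between the models, 2 passed with DESeq2, 1 with at least 10 counts in every library and 0 to 2 with 1 library left out.

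Of the log2 fold changes recomputed, 516 kept their direction and side of the threshold, 21 lost the threshold, 7 gained it and 16 turned sign. Those that turned were near 0 in at least 1 setting. With 1 library left out, Pcp4l1 ranged from -0.16 to 0.013 and Calm2 from -0.052 to 0.062 in KI/KI hearts, Camk2b from -0.47 to 0.28 and Camk2g from -0.10 to 0.11 in cKO hearts, and the difference between the models from -0.22 to 0.54 for Camk2b, -0.039 to 0.14 for Camk2d and -0.33 to 0.81 for Camk4, highest without KI/KI 5. With DESeq2 the last was 0.012. The cause was not tested.

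Replicate numbers are shared only by an adult and a P1 heart. Deviations of such hearts from their group means correlated from -0.54 to -0.24 for WT with floxed and from 0.09 to 0.21 for KI/KI with cKO hearts. With 3 hearts per group and no reference value, these correlations cannot decide whether the numbers mark anything shared. The main fits did not pair hearts by number. With the replicate block, the difference between the models for Camk4 was 0.058, and 0 genes passed for that difference. For floxed against WT, 5 passed, and Camk2d no longer did (adjusted p = 0.0737 in edgeR). Pcp4 has too few counts for a test at P1.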
